A study of Homo sapiens with 12 samples.

Results

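The transcripts of 10 genes of the replication stress checkpoint, ATR, ATRIP, TOPBP1, ETAA1, CLSPN, TIMELESS, TIPIN, CHEK1, WEE1 and CDC25A, were followed across 12 RNA sequencing libraries of Ovcar8 cells, a line grown from a high-grade serous ovarian cancer. The genes were chosen by name as components of ATR and CHK1 signalling, from 58735 genes in the count table, and all 10 passed the filter on low counts that 15378 genes passed. The libraries came from 4 groups of 3: control cells, cells that overexpressed CCNE1 (the CCNE1 group), and cells that overexpressed CCNE1 and carried a short hairpin RNA against TMLHE, either shTMLHE 1 or shTMLHE 2 (the hairpin 1 and hairpin 2 groups). By the labels' protocols the cells of every group were transduced with lentivirus and selected with puromycin at 3 ug/ml, and both hairpin groups also overexpressed CCNE1. No hairpin against another gene, and no TMLHE hairpin without CCNE1 overexpression, is named in the labels used here, so a hairpin's own effects and the loss of TMLHE cannot be told apart. The design text names CCNE1 overexpression against control and TMLHE hairpin against CCNE1 overexpression as the comparisons.

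When a replication fork stalls, single-stranded DNA coated with the protein RPA recruits the kinase ATR through its partner ATRIP. TOPBP1 or ETAA1 then switch ATR on, the mediator CLSPN (claspin) and the fork proteins TIMELESS and TIPIN pass the signal to the kinase CHK1, made by CHEK1, and CHK1 marks the phosphatase CDC25A for destruction. WEE1 places on cyclin-dependent kinases the inhibitory phosphate that CDC25A removes, so both routes hold back S phase and mitosis. Cyclin E1, the product of CCNE1, activates CDK2 and starts DNA replication, and its excess is known to slow forks and to make cells lean on ATR, CHK1 and WEE1. TMLHE encodes the enzyme of the first step of carnitine synthesis.

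The libraries held 14054101 to 16616963 counts in control, 15814583 to 21457503 in the CCNE1 group, 14945893 to 16302525 with hairpin 1 and 14558444 to 19945180 with hairpin 2. CCNE1 transcript stood at 31.6 to 34.1 CPM in control, where CPM are counts scaled to library size with edgeR's TMM factors, and at 962.8 to 1027 in the CCNE1 group, and TMLHE went from 13.2 to 18.6 CPM in the CCNE1 group to 0.712 to 1.27 with hairpin 1 and 0.247 to 0.729 with hairpin 2. CCNE1 differed between the groups that overexpressed it, at 1219 to 1317 CPM with hairpin 1 and 822.6 to 860.3 with hairpin 2. Of 8 serous epithelial markers, 7 had counts in every group, with sums of 4176 to 7926 CPM over all libraries, while 5 leukocyte markers summed to at most 2.98 CPM and 4 endothelial markers to at most 3.3. Most of the serous sum came from keratins, with KRT8, KRT18 and KRT7 at means of 2932, 1309 and 265.5 CPM in control. MUC16 was at 0 in every library and WT1 had at most 12 counts in any library. Group means of EPCAM and CDH1 were 1.18 to 3.74 CPM. Fibroblast markers summed to 900.2 to 967.1 CPM in control, 611.4 to 640.1 in the CCNE1 group and to 1257 to 1628 with the hairpins, nearly all of it COL1A1, with DCN at 0 in every library, and their part in the results below was not tested. The labels give no batch and do not say whether replicates were separate cultures, so p-values measure only the spread between these libraries, which may be technical.

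In CCNE1 cells, 5 of the 10 checkpoint genes were higher than in control (ATR, TOPBP1, CLSPN, CHEK1 and WEE1) and 2 were lower (TIMELESS and TIPIN), at an adjusted p under 0.05 in edgeR's quasi-likelihood test. Over all genes tested, 25.1% were higher and 19.1% lower, and the median log2 fold change was 0.27 over the 10 genes and 0.05 over all genes tested. With the trends on GC content and transcript length removed as offsets, ATR, CHEK1 and WEE1 lost their calls and ATRIP gained one, which left 3 of 10 higher and 2 lower, where 20.2% of all genes were higher and 16.4% lower, at medians of 0.13 and 0.02. Without the offsets, the 3 that did not pass were ATRIP, ETAA1 and CDC25A.

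Both TMLHE hairpins were set against the same CCNE1 libraries, so their comparisons are not independent and are given side by side. With hairpin 1, 5 of the 10 genes rose (WEE1, TOPBP1, CLSPN, ETAA1 and CDC25A) and 0 fell, where 30.4% of all genes tested rose and 30.3% fell. DESeq2 also called 0 of the 10 lower, and in edgeR 0 were lower at an unadjusted p under 0.05. With hairpin 2, 8 rose and 1 fell (TIMELESS), where 36.8% of all genes rose and 36.2% fell, and ATRIP alone did not pass. The median log2 fold change of the 10 genes was 0.31 with hairpin 1 and 0.87 with hairpin 2, against 0.03 over all genes in each comparison. WEE1, TOPBP1, CLSPN, ETAA1 and CDC25A rose with both hairpins, as did 23.2% of all genes, and WEE1, TOPBP1 and CLSPN were in addition higher with CCNE1 than in control, as were 9.8% of all genes. With the GC and length offsets the medians of the 10 genes were 0.07 with hairpin 1 and 0.26 with hairpin 2, against -0.04 and -0.05 over all genes. ETAA1 then lost its call with hairpin 1 and CHEK1 was called lower. With hairpin 2, ATR, TIPIN and ETAA1 lost their calls, CHEK1 and WEE1 turned lower and ATRIP was called higher.

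**Figure D1:**
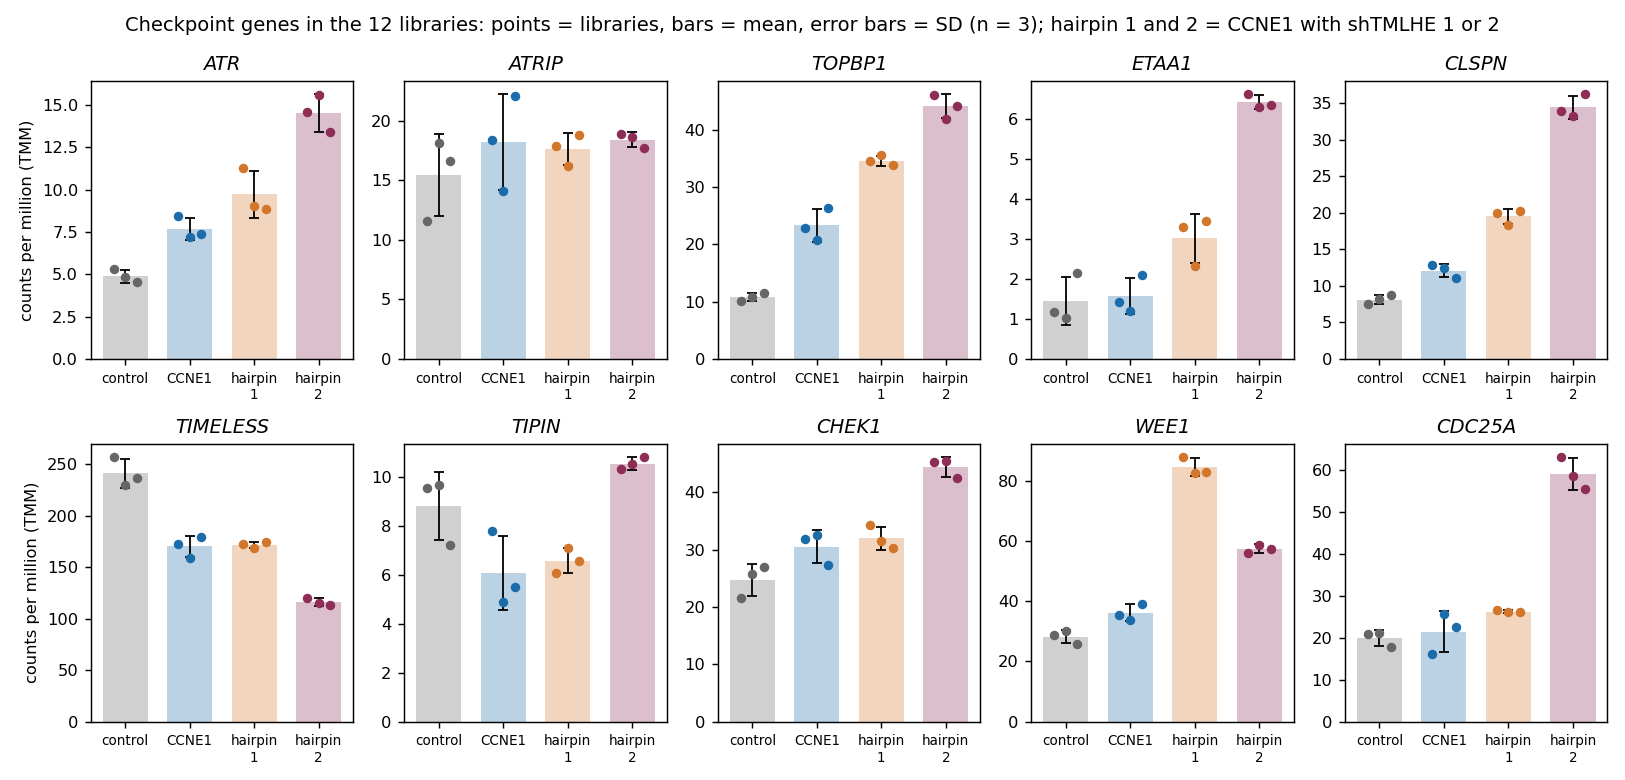
Level of each checkpoint gene in CPM (vertical axes, starting at 0, each gene on its own scale) in the 4 groups, with points for libraries, bars for the mean and error bars for the SD (n = 3). ATR, TOPBP1 and CLSPN climb from control to hairpin 2 without overlap between groups, and the share of all genes that do so was not counted. WEE1 is highest with hairpin 1, CDC25A stands apart with hairpin 2 at 55.5 to 63.2 CPM, and TIMELESS is lowest there.

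Set against control, the hairpin 1 group had 7 of the 10 genes higher and 2 lower, where 35.3% of all genes were higher and 33.4% lower. The hairpin 2 group had 7 higher and 1 lower, where 39% of all genes were higher and 39.1% lower. With the GC and length offsets these counts became 5 higher and 3 lower for hairpin 1, where 27.7% of all genes were higher and 33.5% lower, and 4 higher and 4 lower for hairpin 2, where 31.2% were higher and 36.4% lower. These comparisons share the control libraries with each other and with the CCNE1 comparison. TOPBP1 and WEE1 stood furthest above control with hairpin 1, by log2 fold changes of 1.68 ± 0.10 and 1.58 ± 0.07 (SE), and ETAA1, CLSPN and TOPBP1 with hairpin 2, by 2.15 ± 0.29, 2.08 ± 0.12 and 2.02 ± 0.10. With the offsets TOPBP1 and WEE1 were at 1.11 and 0.50 with hairpin 1. CDC25A, CLSPN, TOPBP1 and ATRIP, at 1.86, 1.52, 1.10 and 1.04, were then the members above control with hairpin 2, ETAA1 was at 0.13 and did not pass (adjusted p = 0.713), and WEE1 was lower, at -0.59. TIMELESS stood below control in each group, by -0.50 ± 0.05, -0.49 ± 0.05 and -1.05 ± 0.05 in the CCNE1, hairpin 1 and hairpin 2 groups, and by -0.38, -0.44 and -0.85 with the offsets.

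Promoter windows from RefSeq (GRCh38.p14, 250 bases before to 50 bases after a transcript start) were available for 9 of the 10 genes, all but WEE1, as 13 windows. They are printed 5′ to 3′ for the members that rose with both hairpins and for TIMELESS, which fell with CCNE1 and again with hairpin 2. Capitals mark matches to TTTNNCGC, the core of the site bound by E2F factors, which cyclin E with CDK2 is known to release from the RB protein, and to the CCAAT box, on either strand, where N is any base.
TOPBP1, chr3:133661892-133662191, minus strand: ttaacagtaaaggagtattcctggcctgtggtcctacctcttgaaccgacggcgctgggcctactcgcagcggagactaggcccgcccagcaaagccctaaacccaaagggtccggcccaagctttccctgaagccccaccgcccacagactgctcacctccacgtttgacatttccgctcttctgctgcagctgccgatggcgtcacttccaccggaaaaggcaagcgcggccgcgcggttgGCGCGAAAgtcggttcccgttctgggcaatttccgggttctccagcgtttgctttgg
CLSPN, chr1:35769929-35770228, minus strand: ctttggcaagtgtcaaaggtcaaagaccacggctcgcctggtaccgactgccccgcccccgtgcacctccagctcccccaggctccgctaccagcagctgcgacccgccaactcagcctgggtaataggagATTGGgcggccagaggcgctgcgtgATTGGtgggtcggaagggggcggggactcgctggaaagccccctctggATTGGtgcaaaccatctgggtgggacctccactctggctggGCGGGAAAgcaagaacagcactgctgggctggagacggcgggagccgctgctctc
CDC25A, chr3:48188368-48188667, minus strand: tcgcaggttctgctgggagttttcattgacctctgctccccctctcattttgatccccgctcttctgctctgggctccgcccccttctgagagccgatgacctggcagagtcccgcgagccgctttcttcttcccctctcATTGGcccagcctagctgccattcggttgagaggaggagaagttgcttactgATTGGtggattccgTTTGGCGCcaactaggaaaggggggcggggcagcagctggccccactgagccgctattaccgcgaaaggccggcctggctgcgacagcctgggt
ETAA1, chr2:67397083-67397382, plus strand: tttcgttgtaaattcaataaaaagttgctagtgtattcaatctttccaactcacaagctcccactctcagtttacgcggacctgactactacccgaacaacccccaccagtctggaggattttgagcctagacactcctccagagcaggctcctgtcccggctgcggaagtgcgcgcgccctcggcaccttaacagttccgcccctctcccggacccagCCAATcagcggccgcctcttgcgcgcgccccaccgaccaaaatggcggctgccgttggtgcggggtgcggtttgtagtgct
TIMELESS, chr12:56449377-56449676, minus strand: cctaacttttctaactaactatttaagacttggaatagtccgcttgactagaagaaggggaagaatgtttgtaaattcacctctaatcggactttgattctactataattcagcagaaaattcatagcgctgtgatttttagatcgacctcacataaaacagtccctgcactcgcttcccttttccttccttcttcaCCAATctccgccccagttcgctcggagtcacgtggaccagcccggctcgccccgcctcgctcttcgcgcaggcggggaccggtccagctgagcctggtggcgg
TTTNNCGC matched in 1 window each of TOPBP1 (GCGCGAAA, bases 244 to 251), CLSPN (GCGGGAAA, bases 246 to 253) and CDC25A (TTTGGCGC, bases 207 to 214), and, as a pair of overlapping matches, in 1 window of TIPIN, so in 4 of the 13 windows. Of all 35116 promoter windows of that length, 6.89% held it. CCAAT matched in 10 of the 13 windows, from 7 genes, against 34.6% of all windows, with 3 matches in CLSPN, 2 in CDC25A, 1 each in ETAA1 and TIMELESS, and 0 in TOPBP1. The windows of CHEK1 overlap and share a CCAAT match, which was counted in each of them, so windows are not independent units. The TTTGAA element of cell cycle genes (CHR) matched in 0 of the 13 windows, against 15.2% of all. A match is a description of the letters and no test of binding.

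ATR, the kinase at the head of the pathway (GRCh38 chromosome 3, 142449235 to 142578826, minus strand, as for all positions from the GENCODE 29 annotation), was one of the less abundant members. Its transcript stood at 5.3, 4.84 and 4.55 CPM in control and 8.44, 7.21 and 7.41 in the CCNE1 group, then at 11.3, 9.02 and 8.84 with hairpin 1 and 14.6, 15.6 and 13.4 with hairpin 2. Every group lay above the one before it with no overlap between libraries. The rise with CCNE1 was 0.64 ± 0.17 on the log2 scale (SE, edgeR adjusted p = 0.00234), the step to hairpin 1 of 0.35 ± 0.15 missed the threshold (adjusted p = 0.0511), and hairpin 2 was 0.92 ± 0.15 above CCNE1 (adjusted p = 8.36e-07). Set against genes of like GC content and length, these were 0.28, -0.28 and -0.15, none past the threshold. Of the exon bases of ATR, 16.4% are shared with AC109992.1 on the opposite strand.

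ATRIP, the partner that brings ATR to RPA (chromosome 3, 48446710 to 48467645, plus strand), passed the test in none of the 6 comparisons between groups in edgeR with TMM scaling. Its levels were 11.6, 18.1 and 16.6 CPM in control, 18.4, 14.1 and 22.1 in the CCNE1 group, 17.9, 16.2 and 18.8 with hairpin 1 and 18.9, 18.6 and 17.7 with hairpin 2. The 4 groups overlapped. The 95% intervals of its log2 difference from CCNE1 ran from -0.33 to 0.24 with hairpin 1 and from -0.25 to 0.3 with hairpin 2, which leaves room for changes of modest size. Without CCNE1 replicate 2 it was higher with CCNE1 than in control, by 0.40 (adjusted p = 0.0205), and against genes of like GC content and length it was higher with CCNE1, by 0.39, and with hairpin 2, by 0.65. The exonuclease gene TREX1 lies wholly inside the exons of ATRIP on the same strand, covering 27.9% of them, and is listed at 0 counts in all 12 libraries, so TREX1 reads may have been counted as ATRIP or dropped. Per base of exon, ATR was at 0.145 ± 0.0468 times the level of ATRIP in control, 0.189 ± 0.0392 times with CCNE1, 0.241 ± 0.0357 times with hairpin 1 and 0.343 ± 0.0195 times with hairpin 2 (SD, n = 3). These ratios are not corrected for GC content, which was 40% in ATR and 58.7% in ATRIP. With the GC and length offsets, the log2 changes from control to hairpin 2 were 0.13 for ATR and 1.04 for ATRIP.

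TOPBP1, which activates ATR at stalled forks (chromosome 3, 133598175 to 133662380, minus strand), had the largest difference of the 10 genes between CCNE1 and control. Its levels were 10.2, 10.8 and 11.6 CPM in control, 22.8, 20.7 and 26.4 with CCNE1, 34.5, 35.5 and 33.8 with hairpin 1 and 46.1, 41.9 and 44.2 with hairpin 2. All 4 groups were separate. With CCNE1 it rose 2.15-fold, a log2 change of 1.10 ± 0.11 (SE, edgeR adjusted p = 6.4e-11), and it rose again by 0.57 ± 0.09 with hairpin 1 (adjusted p = 9.76e-07) and 0.92 ± 0.09 with hairpin 2 (adjusted p = 7.45e-12). Against genes of like GC content and length the rises were smaller with the hairpins, 0.25 (adjusted p = 0.0158) and 0.24 (0.0151), and 0.86 with CCNE1, all past the threshold.

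ETAA1, the other activator of ATR (chromosome 2, 67397319 to 67412089, plus strand), was the least abundant member, with 13 to 26 counts per control library and 113 to 161 with hairpin 2. It stood at 1.18, 1.03 and 2.15 CPM in control and 1.42, 1.21 and 2.09 with CCNE1, which overlapped, then at 3.29, 2.32 and 3.45 with hairpin 1 and 6.62, 6.31 and 6.34 with hairpin 2, each above all libraries before it. The log2 change was 0.94 ± 0.30 with hairpin 1 (adjusted p = 0.00615) and 2.03 ± 0.28 with hairpin 2 (adjusted p = 3.88e-08), a 4.08-fold difference and the largest of any member in these 3 comparisons. Against genes of like GC content and length they were -0.03 and 0.45 and did not pass. CCNE1 against control gave 0.12 ± 0.34, with a 95% interval from -0.56 to 0.8 that this depth could not narrow. Per base of exon, ETAA1 stood at 0.129 ± 0.0461 times TOPBP1 in control, 0.0651 ± 0.0108 times with CCNE1, 0.0856 ± 0.0191 times with hairpin 1 and 0.142 ± 0.00411 times with hairpin 2. These ratios are not corrected for GC content. With the GC and length offsets, the log2 changes from control to hairpin 2 were 0.13 for ETAA1 and 1.10 for TOPBP1.

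CLSPN, the adaptor on which ATR phosphorylates CHK1 (chromosome 1, 35720218 to 35769967, minus strand), rose in each step. Its levels were 7.46, 8.25 and 8.69 CPM in control, 12.8, 12.4 and 11.1 with CCNE1, 19.9, 18.3 and 20.3 with hairpin 1 and 33.9, 33.2 and 36.2 with hairpin 2. No group overlapped another. The log2 changes were 0.58 ± 0.13 with CCNE1 (edgeR adjusted p = 0.000243), 0.69 ± 0.11 with hairpin 1 (adjusted p = 1.2e-06) and 1.51 ± 0.11 with hairpin 2 (adjusted p = 9.73e-16). TOPBP1 and CLSPN were the members that were higher in these 3 comparisons and also lower with hairpin 1 than with hairpin 2, a pattern that 6.94% of all genes tested had. Against genes of like GC content and length CLSPN changed by 0.43, 0.51 and 1.08 and still differed between the hairpins, while TOPBP1 did not (0.01, adjusted p = 0.944).

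TIMELESS, which travels with the fork and supports CHK1 activation (chromosome 12, 56416373 to 56449403, minus strand), was the most abundant member per base of exon and moved the other way. It stood at 257, 230 and 236 CPM in control, 173, 159 and 179 with CCNE1, 172, 168 and 174 with hairpin 1 and 120, 115 and 113 with hairpin 2. Control was above all other libraries and hairpin 2 below them, while CCNE1 and hairpin 1 overlapped. It fell by 0.50 ± 0.05 on the log2 scale with CCNE1 (SE, edgeR adjusted p = 1.27e-11) and by 0.55 ± 0.05 with hairpin 2 (adjusted p = 1.92e-13). With hairpin 1 the difference from CCNE1 was 0.01 ± 0.05, with a 95% interval from -0.08 to 0.11.

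TIPIN, the binding partner of TIMELESS (chromosome 15, 66336206 to 66386746, minus strand), did not follow the fall of TIMELESS from CCNE1 to hairpin 2. Its levels were 9.55, 9.67 and 7.2 CPM in control, 7.77, 4.9 and 5.51 with CCNE1, 6.08, 7.08 and 6.54 with hairpin 1 and 10.3, 10.5 and 10.8 with hairpin 2. The lower level with CCNE1 passed the test (log2 change of -0.56 ± 0.18, adjusted p = 0.012) although libraries of the 2 groups overlapped, but it missed the threshold when control replicate 1 (-0.50, adjusted p = 0.0533), control replicate 2 (-0.49, 0.0548) or CCNE1 replicate 2 (-0.42, 0.0786) was left out. With hairpin 2 it was 0.81 ± 0.17 above CCNE1 (adjusted p = 8.42e-05), and 0.27 against genes of like GC content and length, not past the threshold. Without the offsets it stood 0.25 ± 0.17 above control with hairpin 2, a difference that did not pass (adjusted p = 0.176). With the offsets TIPIN was below control with hairpin 2, at -0.57 (edgeR adjusted p = 0.00339), as was TIMELESS, at -0.85. Per base of exon TIMELESS was at 13.2 ± 2.16 times TIPIN in control, 13.8 ± 2.81 times with CCNE1, 12.4 ± 1.08 times with hairpin 1 and 5.24 ± 0.293 times with hairpin 2 (SD, n = 3). These ratios are not corrected for GC content. The pseudogene RPL9P25 lies inside TIPIN exons, covering 21% of them, and is listed at 0 counts in every library, as is AC109992.1 inside ATR.

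CHEK1, the gene of the effector kinase CHK1 (chromosome 11, 125625136 to 125676255, plus strand), changed less than its adaptor. Its levels were 21.6, 25.7 and 26.9 CPM in control, 31.8, 32.5 and 27.3 with CCNE1, 34.2, 31.5 and 30.3 with hairpin 1 and 45.3, 45.5 and 42.4 with hairpin 2. Control lay lowest and hairpin 2 highest, each without overlap, and CCNE1 and hairpin 1 overlapped. The rise with CCNE1 was 0.31 ± 0.09 (SE, edgeR adjusted p = 0.00689), and without control replicate 1 it was 0.22 and missed the threshold (adjusted p = 0.0868). Hairpin 2 was 0.54 ± 0.09 above CCNE1 (adjusted p = 6.66e-07) and hairpin 1 was 0.07 ± 0.09 above it (adjusted p = 0.53, 95% interval from -0.11 to 0.25). Against genes of like GC content and length the CCNE1 change was 0.01 and CHEK1 was lower with both hairpins, by 0.27 and 0.22.

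The 5 genes whose log2 CPM, centred on their own mean, lay closest to CHEK1 over the 12 libraries were CDC16, RBM6, XPR1, SUPT20H and PRDX3, at Euclidean distances of 0.259 to 0.347. No other checkpoint gene came near: the closest were ATR and ATRIP at a distance of 1.05, at ranks 1963 and 1950 among the genes tested. CDC16 is a subunit of the anaphase-promoting complex, and its log2 changes were 0.24, 0.16 and 0.58 with CCNE1, hairpin 1 and hairpin 2. These distances are a description over libraries that share their groups and are not corrected for GC content. GC content was 41.5% in CHEK1 and 39.8% to 46.5% in the 5 genes. All genes tested with 41.3% to 43.6% GC had median log2 changes of 0.28, 0.23 and 0.61 with CCNE1, hairpin 1 and hairpin 2. The part of GC content in this likeness was not tested.

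WEE1, the kinase that inhibits CDK1 and CDK2 (chromosome 11, 9573681 to 9593457, plus strand), was the member with its highest level in the hairpin 1 group. It stood at 28.9, 30.1 and 25.8 CPM in control, 35.5, 33.7 and 39.2 with CCNE1, 87.9, 82.7 and 82.8 with hairpin 1 and 55.9, 58.8 and 57.5 with hairpin 2. All 4 groups were separate. The log2 change was 0.35 ± 0.08 with CCNE1 (edgeR adjusted p = 0.000282), 1.23 ± 0.07 with hairpin 1, a 2.34-fold rise (adjusted p = 2.31e-18), and 0.67 ± 0.07 with hairpin 2 (adjusted p = 5.14e-11). Against genes of like GC content and length these were -0.05, 0.55 and -0.53. By that measure WEE1 was higher with hairpin 1, not past the threshold with CCNE1 and lower with hairpin 2. Whether the GC and length trend is technical was not tested.

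CDC25A, the phosphatase that opposes WEE1 and is destroyed on CHK1's signal (chromosome 3, 48157146 to 48188402, minus strand), rose most with hairpin 2. Its levels were 21, 21.1 and 17.9 CPM in control, 16.1, 25.8 and 22.6 with CCNE1, 26.6, 26.1 and 26.1 with hairpin 1 and 63.2, 58.7 and 55.5 with hairpin 2. Control and CCNE1 overlapped, hairpin 1 lay just above the highest CCNE1 library, and hairpin 2 stood far above all others. The rise with hairpin 2 was 2.72-fold, a log2 change of 1.45 ± 0.10 (SE, edgeR adjusted p = 5.67e-15). That with hairpin 1 was 0.27 ± 0.11 (adjusted p = 0.0282) and lost its call in DESeq2 (adjusted p = 0.063), in limma on the deposited FPKM (0.0815), without CCNE1 replicate 1 (0.11, adjusted p = 0.323) and without hairpin 1 replicate 1, 2 or 3 (adjusted p = 0.0725, 0.0552 and 0.0536). Without CCNE1 replicate 1, CDC25A passed in CCNE1 against control at 0.28 (adjusted p = 0.0274), where all libraries gave 0.12 ± 0.11 (adjusted p = 0.433).

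The ratio of CDC25A to WEE1 per base of exon was 1.63, 1.58 and 1.55 in the control libraries and 1.02, 1.72 and 1.29 with CCNE1. It was 0.68, 0.707 and 0.709 with hairpin 1 and 2.53, 2.24 and 2.17 with hairpin 2. The hairpin 1 libraries were all below, and the hairpin 2 libraries all above, every library of the other groups, so the hairpins went apart in opposite directions from their common CCNE1 group. This ratio is given as a description of transcripts, with no test of its own and no correction for GC content. With the offsets, CDC25A and WEE1 differed from CCNE1 by 0.31 and 0.55 with hairpin 1, and by 1.62 and -0.53 with hairpin 2.

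Levels between genes were compared as RPKM, which are CPM divided by the kilobases of exon. In control the order was TIMELESS at 41.4 ± 2.41, CDC25A at 4.85 ± 0.442, CHEK1 at 3.77 ± 0.423, TIPIN at 3.2 ± 0.505, WEE1 at 3.06 ± 0.237, ATRIP at 2.84 ± 0.627, CLSPN at 1.5 ± 0.116, TOPBP1 at 1.49 ± 0.0971, ATR at 0.392 ± 0.03 and ETAA1 at 0.195 ± 0.0813 (SD, n = 3). Neighbours from CHEK1 to ATRIP lay within their spread, as did CLSPN and TOPBP1. With hairpin 2, TIMELESS was at 20 ± 0.656, CDC25A at 14.4 ± 0.933 and CHEK1, CLSPN, WEE1 and TOPBP1 at 6.03 to 6.77. TIPIN and ATRIP followed at 3.82 ± 0.0896 and 3.39 ± 0.11, then ATR at 1.16 ± 0.0894 and ETAA1 at 0.859 ± 0.0226. RPKM are not corrected for GC content. With the offsets TOPBP1 and ATRIP rose by like amounts from control to hairpin 2, 1.10 and 1.04, so their change of order in RPKM was not seen apart from the GC and length trend.

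The difference between the hairpins was tested directly, as hairpin 1 minus hairpin 2, in which the CCNE1 libraries cancel. Of the 10 genes, 7 were lower with hairpin 1 and 2 higher, where 29% of all genes tested were lower and 31.3% higher. CDC25A at -1.17 ± 0.10 (SE, edgeR adjusted p = 1.32e-12), ETAA1 at -1.09 ± 0.26 (0.000354) and CLSPN at -0.82 ± 0.10 (3.86e-09) had the largest deficits, followed by TIPIN, ATR, CHEK1 and TOPBP1 at -0.68 to -0.35. WEE1 and TIMELESS were each 0.56 higher with hairpin 1 (adjusted p = 1.27e-09 and 1.65e-13). ATRIP differed by -0.07 (adjusted p = 0.693, 95% interval from -0.34 to 0.21).

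GC content, the share of G and C bases in a transcript, moved with these results. Among all genes tested, split into 10 equal groups by GC content, the median log2 change with hairpin 2 went from 1.27 in the group with least GC to -1.27 in the group with most. With hairpin 1 it went from 0.64 to -0.45, and with CCNE1 from 0.48 to -0.04. Of the checkpoint genes, 7 had 44.8% GC or less (ETAA1 33.7%, WEE1 37.9%, ATR 40%, TIPIN 41.3%, CHEK1 41.5%, TOPBP1 42.8% and CLSPN 44.8%), while TIMELESS and CDC25A had 51.7% and ATRIP 58.7%.

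**Figure D2:**
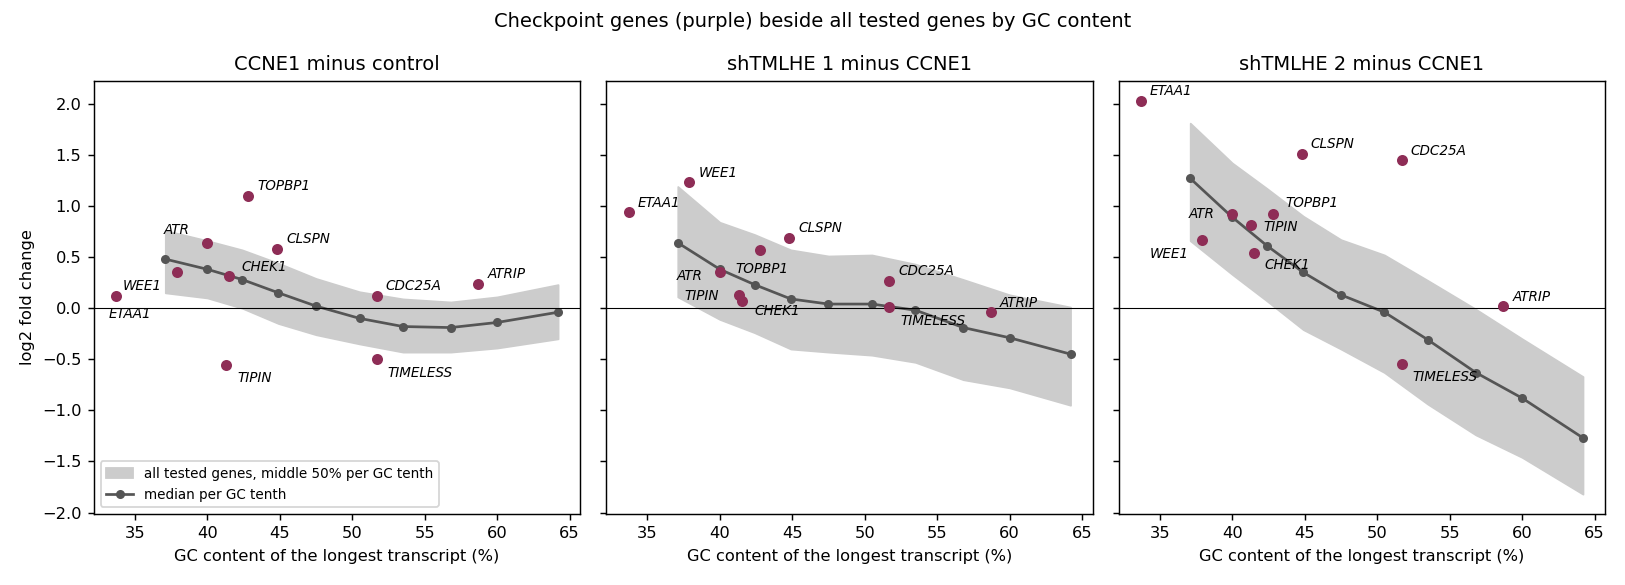
Log2 fold change of the 10 checkpoint genes (purple, vertical axis) against the GC content of their longest transcript in percent (horizontal axis), over the median (line) and the middle 50% (grey) of all genes tested in each of 10 groups by GC content. With hairpin 2, ATR, TIPIN, CHEK1, TOPBP1 and TIMELESS lie within the middle 50% of their group, WEE1 lies at its lower edge, and CLSPN, CDC25A, ETAA1 and ATRIP lie above it.

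To measure each gene beside genes of like GC content and length, the trend of every library on both was removed as an offset and the test repeated. For CCNE1 against control, TOPBP1 (0.86), CLSPN (0.43) and ATRIP (0.39) were then higher and TIMELESS (-0.38) and TIPIN (-0.84) lower, while ATR (0.28, adjusted p = 0.208), CHEK1 (0.01, 0.937) and WEE1 (-0.05, 0.647) no longer passed. With hairpin 1, WEE1 (0.55), CLSPN (0.51), CDC25A (0.31) and TOPBP1 (0.25) were higher, ETAA1 (-0.03, adjusted p = 0.936) lost its call and CHEK1 (-0.27, 0.00818) was lower. With hairpin 2, CDC25A (1.62), CLSPN (1.08), ATRIP (0.65) and TOPBP1 (0.24) were higher, TIMELESS (-0.47) stayed lower, CHEK1 (-0.22, adjusted p = 0.0256) and WEE1 (-0.53, 1.38e-08) turned lower, and ATR (-0.15), TIPIN (0.27) and ETAA1 (0.45) did not pass.

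The counts in those fits were 3 higher and 2 lower with CCNE1, 4 and 1 with hairpin 1, and 4 and 3 with hairpin 2. Over all genes tested the shares were 20.2% and 16.4%, 24.3% and 32.2%, and 28.2% and 34.9%. The median over the 10 genes was 0.13, 0.07 and 0.26, against 0.02, -0.04 and -0.05 over all genes. Between the hairpins, CDC25A (-1.31), CLSPN (-0.57) and ATRIP (-0.54) were lower and WEE1 (1.09) and TIMELESS (0.41) higher with hairpin 1, while ATR, TIPIN, CHEK1, ETAA1 and TOPBP1 did not pass, so 3 were lower and 2 higher, where 23.1% of all genes were lower and 25.1% higher. Call and direction were the same with and without the offsets for CLSPN and TOPBP1 in all 3 comparisons, for CDC25A with both hairpins, for WEE1 with hairpin 1, for TIMELESS with CCNE1 and with hairpin 2, and for TIPIN with CCNE1.

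**Figure D3:**
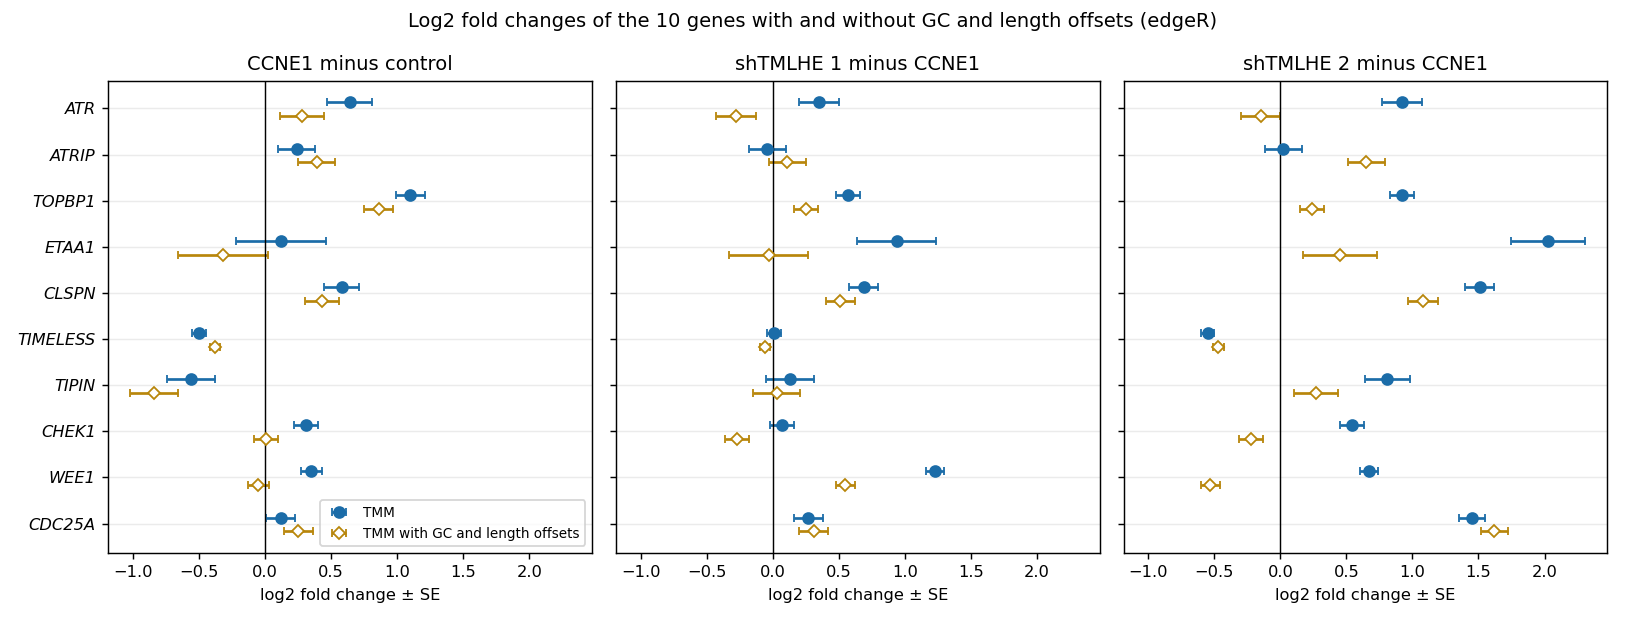
Log2 fold changes of the 10 genes with their SE (horizontal axis) from edgeR with TMM scaling (filled circles) and with offsets for GC content and length added (open diamonds). CLSPN, TOPBP1 and CDC25A stay on the same side of 0 in the hairpin panels, and WEE1 moves from 0.67 to -0.53 with hairpin 2.

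The TMM factors were 0.847 to 0.864 in the control and CCNE1 libraries and 1.11 to 1.23 in the hairpin libraries, so scaling by total counts instead moved all genes together with the hairpins: the median log2 change of all genes tested became 0.43 with hairpin 1 and 0.56 with hairpin 2, against 0.03 in each, and the share of called genes that were higher went from 50% to 75.9% and from 50.4% to 70.7%. Under it TIMELESS with hairpin 2 was at -0.02 (adjusted p = 0.701), still below that median. ATRIP changed sign with hairpin 1, to 0.35 (adjusted p = 0.0264), also below the median. All 10 checkpoint genes then passed as higher with hairpin 1 and 9 with hairpin 2. Of all 15378 genes tested, 7844 were higher with hairpin 1 in that fit, and with hairpin 2 70.7% of 11758 called genes were. CLSPN, at 1.08 and 2.04, and TOPBP1, at 0.97 and 1.45, lay well above the median of all genes.

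Other genes of the pathway were taken as 6 lists of 52 genes, of which 51 were tested. Their counts with TMM scaling are to be read against the shares of all genes called higher and lower, 25.1% and 19.1% with CCNE1, 30.4% and 30.3% with hairpin 1, and 36.8% and 36.2% with hairpin 2. With CCNE1, 26 were higher and 3 lower, at a median log2 change of 0.28. There were 12 higher and 22 lower with hairpin 1 (median -0.09), and 24 higher and 18 lower with hairpin 2 (median 0.10). The hairpin counts moved with the processing, to 29 and 8 with hairpin 1 and 33 and 10 with hairpin 2 under total counts, and to 9 and 25 and 10 and 24 with the offsets. Under total counts 7844 of all 15378 genes tested were higher and 2490 lower with hairpin 1. With hairpin 2, 11758 were called there, 70.7% of them higher and 3443 lower. With the offsets 24.3% of all genes were higher and 32.2% lower with hairpin 1, and 28.2% and 34.9% with hairpin 2. RPA, the single-strand binding complex that ATRIP reads, had RPA3 up by 0.78 ± 0.09 with CCNE1 (SE, edgeR adjusted p = 1.09e-08) and down by 1.22 and 1.15 with hairpins 1 and 2. RPA1 rose by 0.29 with CCNE1, was 0.40 lower with hairpin 2 and turned to 0.13 higher there under total counts. RPA2 was lower in all 3 comparisons, by 0.21, 0.47 and 0.42, but under total counts it was at -0.08 with hairpin 1, not past the threshold, and 0.11 higher with hairpin 2. Total-count scaling moved the median of all genes to 0.43 and 0.56, and RPA1 and RPA2 lay below it with both hairpins.

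Of the 9-1-1 clamp, its loader and RHNO1, which bring TOPBP1 to ATR, 10 of 11 genes were tested. With CCNE1, 4 rose and 0 fell (0 also under total counts and with the offsets), while 3 rose and 5 fell with hairpin 1, and 6 rose and 3 fell with hairpin 2. The 3 of 10 that rose with hairpin 1 matched the share of all genes, 30.4%, and with hairpin 2 36.8% of all genes rose. With the offsets 2 rose with CCNE1, 2 rose and 5 fell with hairpin 1, and 2 rose and 3 fell with hairpin 2. The shares of all genes that rose were then 20.2%, 24.3% and 28.2%, and 32.2% and 34.9% fell with hairpins 1 and 2. The loader subunit RFC2 rose by 0.28 with CCNE1 and fell by 0.77 and 1.09 with hairpins 1 and 2, from 247.8 ± 10.5 CPM to 145.6 ± 0.904 and 116.2 ± 2.31 (SD, n = 3), and by 0.54 and 0.64 with the offsets. RFC3 rose by 0.86 with CCNE1 (0.51 with the offsets), and RHNO1 fell by 0.70 with hairpin 1.

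Among 8 genes of the CDK switch that WEE1 and CDC25A act on, 4 rose and 0 fell with CCNE1 (under total counts 1 fell), 1 rose and 5 fell with hairpin 1, and 2 rose and 5 fell with hairpin 2, where 25.1% and 19.1%, 30.4% and 30.3%, and 36.8% and 36.2% of all genes rose and fell. With the offsets 6 rose and 0 fell with CCNE1, 2 and 4 with hairpin 1, and 4 and 3 with hairpin 2. The shares of all genes were then between 16.4% and 34.9%. The cyclins that CDK1 pairs with were among the genes that rose with CCNE1, CCNA2 by 0.74 and CCNB1 by 0.29 (0.49 and 0.08 with the offsets). CDK1, the kinase that WEE1 inhibits, rose from 21.2 ± 2.04 CPM with CCNE1 to 80.8 ± 4.38 with hairpin 1 and 94.1 ± 1.67 with hairpin 2, log2 changes of 1.92 ± 0.08 (edgeR adjusted p = 1.98e-22) and 2.15 ± 0.08 (1.47e-24). With the offsets these were 1.45 and 1.11. PLK1, which marks WEE1 and CLSPN for destruction, fell by 1.00 and 0.83, and by 0.85 and 0.28 with the offsets. PKMYT1, the membrane-bound relative of WEE1, fell by 0.39 and 1.09, but was at -0.03 and 0.07 with the offsets.

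Of 14 genes of the turnover of checkpoint proteins, 8 rose and 1 fell with CCNE1, where 25.1% and 19.1% of all genes did, and 8 and 4 with hairpin 2, where 36.8% and 36.2% did. The 3 that rose and 4 that fell with hairpin 1 were near or below the 30.4% and 30.3% of all genes. With the offsets 5 rose and 2 fell with CCNE1, 2 and 6 with hairpin 1, and 1 and 8 with hairpin 2. The shares of all genes were then 20.2% and 16.4%, 24.3% and 32.2%, and 28.2% and 34.9%. Without the offsets CUL1, the scaffold of the ligase that BTRC serves, rose by 0.66 with CCNE1. DDB1, the adaptor of another cullin ligase, was the gene that fell in that fit, by 0.48. FZR1, an activator of the anaphase-promoting complex, was at 238.4 ± 11.8 CPM with CCNE1, 217.6 ± 3.68 with hairpin 1 and 71.7 ± 2.22 with hairpin 2, a log2 change of -1.73 ± 0.04 with the latter (edgeR adjusted p = 9.24e-30; -0.76 with the offsets). Its small fall with hairpin 1, -0.13, turned to 0.13 with the offsets and 0.26 under total counts. USP20, a deubiquitinase of claspin, fell by 1.27 with hairpin 2 (0.54 with the offsets), and BTRC, the F-box protein that recognises phosphorylated CDC25A and claspin, rose by 0.59 with hairpin 1 (0.36 with the offsets).

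Of 5 genes of fork remodelling and protection, 2 rose and 0 fell with CCNE1 (with the offsets 1 and 1), 1 and 2 with hairpin 1, and 2 and 1 with hairpin 2, where the shares of all genes were between 19.1% and 36.8%. With the offsets 0 rose and 2 fell with hairpin 1, and 0 rose and 3 fell with hairpin 2. The shares of all genes in those fits were between 24.3% and 34.9%. WDHD1, a replisome adaptor, rose by 1.10, 0.42 and 0.87. The first was 0.71 with the offsets, and the others were -0.11 and -0.19 with the offsets and did not pass. The fork remodeller HLTF was 0.24 lower with hairpin 1 and 1.27 higher with hairpin 2, and 0.87 lower and 0.08 higher with the offsets.

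In the parallel pathway of double-strand breaks, 6 of 11 genes rose and 1 fell with CCNE1, where 25.1% and 19.1% of all genes did. With hairpin 1, 4 rose and 4 fell, near the 30.4% and 30.3% of all genes, and with hairpin 2, 6 rose and 2 fell, where 36.8% and 36.2% did. With the offsets 5 rose and 1 fell with CCNE1, 3 and 5 with hairpin 1, and 3 and 4 with hairpin 2. The shares of all genes were then between 16.4% and 34.9%. MRE11, of the complex that senses breaks, rose by 1.25 with CCNE1, and PRKDC, the kinase of end joining, by 0.62, while MDC1, the mediator that reads the marked histone, fell by 0.43 (0.86, 0.48 and -0.29 with the offsets). ATM, the kinase related to ATR, rose by 1.11 ± 0.09 and 1.46 ± 0.09 with hairpins 1 and 2 (edgeR adjusted p = 1.74e-13 and 1.46e-17), which became 0.23 and 0.13 with the offsets. NBN, of the complex that activates ATM, rose by 1.12 and 1.91 and with the offsets by 0.55 and 0.79. H2AFX, the gene of the histone that ATM and ATR mark, fell by 0.65 and 1.46 and was at -0.04 and -0.06 with the offsets.

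**Figure D4:**
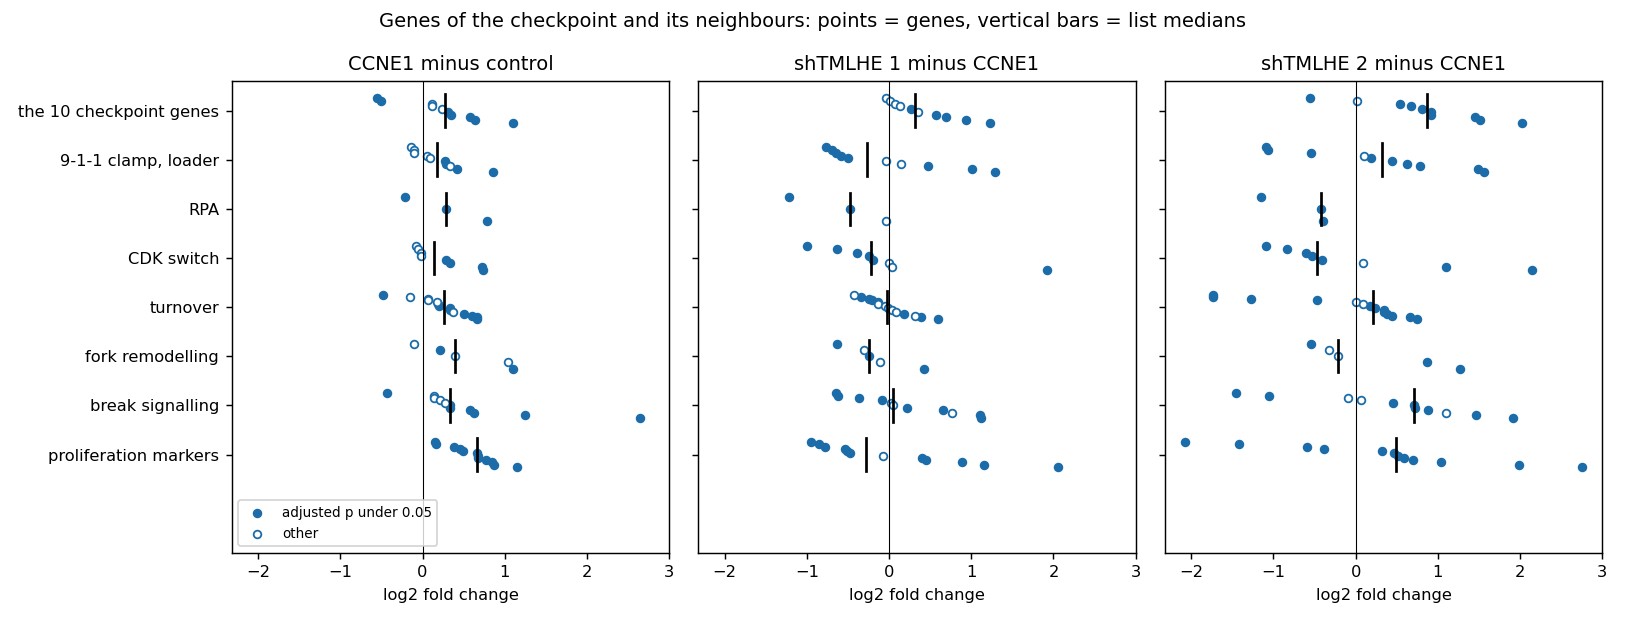
Log2 fold changes (horizontal axis) of single genes in the checkpoint set, its 6 neighbour lists and the proliferation markers, filled where the adjusted p was under 0.05, with list medians as vertical bars. With hairpin 2 the checkpoint genes have a median of 0.87, and RPA, the CDK switch and fork remodelling have medians below 0. These medians depend on the scaling. With the offsets, which are not drawn, they are 0.26, -0.57, 0.11 and -0.42 in that order. Under total counts they are 1.39, 0.11, 0.06 and 0.31, where the median of all genes is 0.56.

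Proliferation markers moved with CCNE1 as well: 12 of 12 rose (11 with the offsets), and their summed level went from 1502 to 1527 CPM in control to 2190 to 2203. The sum was 1920 to 2011 CPM with hairpin 1 and 2021 to 2101 with hairpin 2, where 5 rose and 6 fell, and 8 rose and 4 fell (4 and 7, and 5 and 4, with the offsets). Of all genes, 25.1% rose and 19.1% fell with CCNE1, 30.4% and 30.3% with hairpin 1, and 36.8% and 36.2% with hairpin 2. With the offsets these shares were 20.2% and 16.4%, 24.3% and 32.2%, and 28.2% and 34.9%. Without the offsets MCM5, a replicative helicase subunit with 57% GC, fell by 0.95 and 2.08 with the hairpins. All genes tested with 55.1% to 58.4% GC had medians of -0.19 and -0.63 there. TOP2A, the topoisomerase of dividing cells, rose by 0.89 and 1.04, which were 0.42 and, not past the threshold, 0.07 with the offsets. Several of the checkpoint genes are known to be transcribed more in S and G2 phase, and the part of cell cycle position in their levels was not tested. Fewer cells in a phase and less RNA per cell cannot be told apart in bulk libraries.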

How the data were processed

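RNA of 12 Ovcar8 libraries was analysed. The authors deposited whole-number counts per gene for 58735 genes, not normalized, and FPKM made by the authors, per the file headers. The submitters' processing notes name GRCh38, STAR 2.6.1 and DESeq2. Which program counted reads, and with what strand setting, is not given in the sources used here. Deposited gene lengths equalled GENCODE 29 exon lengths in 100% of genes, and GC content and positions came from that annotation.

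Groups followed the labels. Counts were filtered with filterByExpr, leaving 15378 genes, and tested with edgeR 4.0.16 (R 4.3.3; TMM, robust quasi-likelihood, 1 mean per group, 8 residual degrees of freedom), with Benjamini-Hochberg adjustment across the 15378 genes and a threshold of 0.05. Intervals are 95%. The fits were tested on simulated data. Replicates differed by more than sampling noise. Offsets were splines of GC content and log2 length (4 degrees of freedom) per library.

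Members and lists were chosen with earlier results of these data known. Named were all members, CCNE1, TMLHE, and the 5 genes nearest CHEK1. From each list the 3 genes with the smallest p per comparison could be named, and those printed were picked among them after their values were seen. Promoter sequences are from RefSeq. Alternatives were RLE and total-count scaling, other filters (none, or 10 counts in 3 libraries), DESeq2 1.42.0, fits of the compared groups alone, a replicate block, limma 3.58.1 on log2 FPKM plus 0.1 or 1, a threshold of 0.01 and leaving out each library.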

Additional observations from a re-analysis of the deposited data

Results flagged for a closer look

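Of the 10 checkpoint genes, 9 responded to the hairpins by different amounts, by edgeR's test of hairpin 1 minus hairpin 2 with the CCNE1 libraries common to both. In the same test 31.3% of all genes were higher and 29% lower with hairpin 1. The differences in log2 change were -1.17 for CDC25A, -1.09 for ETAA1, -0.82 for CLSPN, -0.68 for TIPIN, -0.58 for ATR, -0.47 for CHEK1 and -0.35 for TOPBP1, all larger rises with hairpin 2. WEE1 at 0.56 rose more with hairpin 1. TIMELESS, also at 0.56, fell with hairpin 2 and was 0.01 from CCNE1 with hairpin 1, which did not pass. With the offsets for GC content and length, CDC25A (-1.31), CLSPN (-0.57), WEE1 (1.09) and TIMELESS (0.41) still differed, and the other 5 did not pass. ATRIP then differed as well, at -0.54 (edgeR adjusted p = 0.000975), where 25.1% of all genes were higher and 23.1% lower.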

How the results depend on the processing

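Leaving out each library in turn gave 480 log2 changes of checkpoint genes, of which 455 kept direction and side of the threshold, and no called change reversed. The numbers of checkpoint genes called were then 4 to 6 higher and 1 to 2 lower with CCNE1, 4 to 6 and 0 with hairpin 1, 8 and 1 with hairpin 2, 2 and 7 for hairpin 1 against hairpin 2, 7 and 1 to 2 for hairpin 1 against control, and 7 to 8 and 1 for hairpin 2 against control. Changes that took either sign when a library was left out were those with CCNE1 of ETAA1 (-0.14 to 0.49) and CDC25A (-0.04 to 0.28), with hairpin 1 of ATRIP (-0.21 to 0.13), CHEK1 (-0.01 to 0.12), TIMELESS (-0.04 to 0.05) and TIPIN (-0.01 to 0.34), and with hairpin 2 of ATRIP (-0.14 to 0.19). Of 440 changes under the other settings, 384 kept direction and side and 12 called changes reversed. With the GC and length offsets, alone or with the replicate block, the counts were 3 higher with CCNE1, 1 lower with hairpin 1, 4 higher and 3 lower with hairpin 2, 3 lower for hairpin 1 against hairpin 2, and 4 higher and 4 lower for hairpin 2 against control. Reversed values there were WEE1 -0.05 and ETAA1 -0.32 (-0.31 with the block) with CCNE1; ATR -0.28, ATRIP 0.11 (0.12), CHEK1 -0.27, TIMELESS -0.06 and ETAA1 -0.03 with hairpin 1; ATR -0.15 (-0.16), CHEK1 -0.22 and WEE1 -0.53 with hairpin 2; and TOPBP1 0.01 between the hairpins. The pathway lists then had 5 lower with CCNE1, 10 higher with hairpin 2 and 10 lower between the hairpins. Under total counts 10 checkpoint genes were higher with hairpin 1 and 0 lower with hairpin 2, where edgeR's unadjusted p of TIMELESS also missed 0.05 and DESeq2 called 1; ATRIP with hairpin 1 was 0.35; 1 was lower for hairpin 1 against control, as in DESeq2, with no filter and at the threshold of 0.01; the lists had 29 higher and 8 lower with hairpin 1 and 10 lower with hairpin 2; and over all genes 7844 were higher and 2490 lower with hairpin 1 and 3443 lower with hairpin 2. At 0.01, 1 was lower with CCNE1. With limma on FPKM, TIMELESS with hairpin 1 was -0.01. The cause of these differences was not tested.

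The replicate numbers do not pair the libraries: over 18 same-number pairs the correlations of deviations were -0.05 to 0.03. The replicate block changed no call of a checkpoint gene and left 5 higher and 2 lower with CCNE1, 5 and 0 with hairpin 1, and 8 and 1 with hairpin 2.

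Depth limits ETAA1 most, at 13 counts in the lowest control library.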
